A study of Mus musculus with 52 samples.

Results

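The genes described here encode the proteins of the cytosolic ribosome. They were taken by symbol: Rpl or Rps followed by a number with at most a paralog suffix, together with Rplp0, Rplp1, Rplp2 and Rpsa, leaving out symbols that end in -ps. The rule found 88 genes among 47729 gene identifiers, of which 49 name proteins of the large subunit, 36 proteins of the small subunit and 3 proteins of the ribosomal stalk. Of the 88, the annotation (GENCODE, GRCm38) gives 83 as protein coding, 4 as processed pseudogenes (Rps3a3, Rps12l1, Rps3a2 and Rpl6l) and 1, Rps4l, as a transcribed processed pseudogene. The statistical test covered 87 of them, since Rpl10l had too few counts.

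The series measured RNA from 52 mammary tumours grown from 4T1 cells, a metastatic mouse mammary carcinoma line, in Balb/C mice that received immune checkpoint antibodies. Every mouse had 100000 tumour cells placed in the left mammary fat pad 4 and received 3 intraperitoneal doses of 200 µg of one antibody, on days 7, 10 and 13. Young mice were 8 to 10 weeks old by their sample labels, while the protocol gives an upper age of 12 weeks. Aged mice were older than 12 months. The 6 groups were young mice with isotype control antibody LTF-2 (7 tumours), young mice with anti-PD-L1 clone 10F.9G2 (10), young mice with anti-CTLA4 clone 9D9 (12), aged mice with isotype (7), aged mice with anti-PD-L1 (8) and aged mice with anti-CTLA4 (8). The carcinoma cells are those of 1 transplanted line in every mouse, so age here is the age of the host. Whole tumours were sequenced after selection of polyadenylated RNA, and in such bulk samples fewer cells of a type and less RNA per cell cannot be told apart.

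A ribosome is built from ribosomal RNA and a fixed set of proteins that are needed in nearly equal amounts, and their messages are among the most abundant of a growing cell. Most of these messages begin with a C followed by a run of pyrimidines, the terminal oligopyrimidine (TOP) motif, through which mTORC1 controls how well they are translated. Free ribosomal proteins that are not built into a subunit are degraded, and Rpl5 and Rpl11 can bind Mdm2 and stabilise p53 when assembly fails.

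The starts of the genes are shown first because the TOP motif is the feature these genes are known to share and the rule did not use it. Start positions were taken from the RefSeq promoter table (GRCm38.p6), which held 63 of the 88 genes. A C at the annotated start followed by at least 4 bases that were C or T, read on the gene's own strand at that position only, was found in 13 of the 63, or 20.6%. The same was found for 813 of all 27025 genes in the table, or 3.01%, for 0 of 69 mitochondrial ribosomal protein genes and for 3 of 13 other genes with known TOP messages. A C alone stood at the start of 33.3% of the ribosomal protein genes and 18.9% of all genes. A match describes the letters at one annotated start, and no match says only that these letters are not at that position. The windows below run from 40 bases before the start to 20 bases from it, 5′ to 3′, and capitals mark the C and the pyrimidine run at the start. Rplp2, Rpl28 and Rps21 are shown because they passed a test below, Rps27 because it is among the most abundant messages, Rps6 as the target of S6 kinase, and Rpl15 because its run is long.
Rplp2 at chr7:141447611-141447670, plus strand: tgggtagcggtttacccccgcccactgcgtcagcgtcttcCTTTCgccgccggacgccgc
Rpl28 at chr7:4792925-4792984, plus strand: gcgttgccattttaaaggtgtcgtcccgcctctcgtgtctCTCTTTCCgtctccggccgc
Rps21 at chr2:180257339-180257398, plus strand: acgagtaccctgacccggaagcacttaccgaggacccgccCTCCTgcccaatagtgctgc
Rps27 at chr3:90213629-90213688, minus strand: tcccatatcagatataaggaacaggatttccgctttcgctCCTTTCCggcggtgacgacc
Rps6 at chr4:86857348-86857407, minus strand: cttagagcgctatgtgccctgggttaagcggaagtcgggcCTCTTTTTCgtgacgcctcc
Rpl15 at chr14:18270967-18271026, minus strand: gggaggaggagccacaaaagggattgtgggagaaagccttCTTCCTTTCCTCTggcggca

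Each library held between 9549847 and 53778370 estimated read counts on genes (median 20665733). Libraries were made in 3 sequencing batches, spread unevenly: the 7 young isotype libraries were all in batch 2, the 8 aged anti-PD-L1 libraries were all in batch 1, and no aged library was in batch 2. The normalisation factors ranged from 0.618 to 1.21, and 4 libraries lay under 0.8: young isotype 1 and 6, aged isotype 3 and young anti-CTLA4 8. Carcinoma epithelium markers (10 genes, keratins and epithelial junction genes) summed to between 666 and 3657 CPM (counts scaled to library size) in every tumour. Epithelial messages were thus present throughout. Markers of other cells were present in every tumour too and spread widely, from 195 to 4257 CPM for neutrophil markers, 28.1 to 1467 for T cell markers and 9.7 to 678 for milk-secreting epithelium. The libraries are separate tumours by their labels, so p-values measure the spread between tumours.

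Ribosomal protein messages took up a large and uneven part of the libraries. In young mice with isotype antibody they held 7.25% of counts in the lowest tumour, 13.8% in the median tumour and 22.7% in the highest (mean 13.9% ± 5.48, SD, n = 7). The share was 9.37% ± 2.68 (n = 10; 5.58% to 13.4%) under anti-PD-L1 and 10.8% ± 4.00 (n = 12; 6.30% to 19.4%) under anti-CTLA4. In aged mice it was 12.4% ± 3.17 (n = 7; 8.85% to 18.7%) with isotype, 9.04% ± 1.36 (n = 8; 6.98% to 11.2%) with anti-PD-L1 and 8.85% ± 2.22 (n = 8; 5.53% to 11.5%) with anti-CTLA4. The mean was highest with isotype antibody at both ages, and in each age the isotype and antibody groups overlapped. As a share of TPM (transcript units that divide by gene length and sum to a constant), the order was similar, with 22.5% in young isotype tumours and 17.1% in aged anti-CTLA4 tumours at the ends. Within batches the share of counts was 13.8% in batch 1, 12.0% in batch 2 and 7.64% in batch 3 of the young anti-CTLA4 tumours, and 11.5% in batch 1 against 13.0% in batch 3 of the aged isotype tumours.

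**Figure D1:**
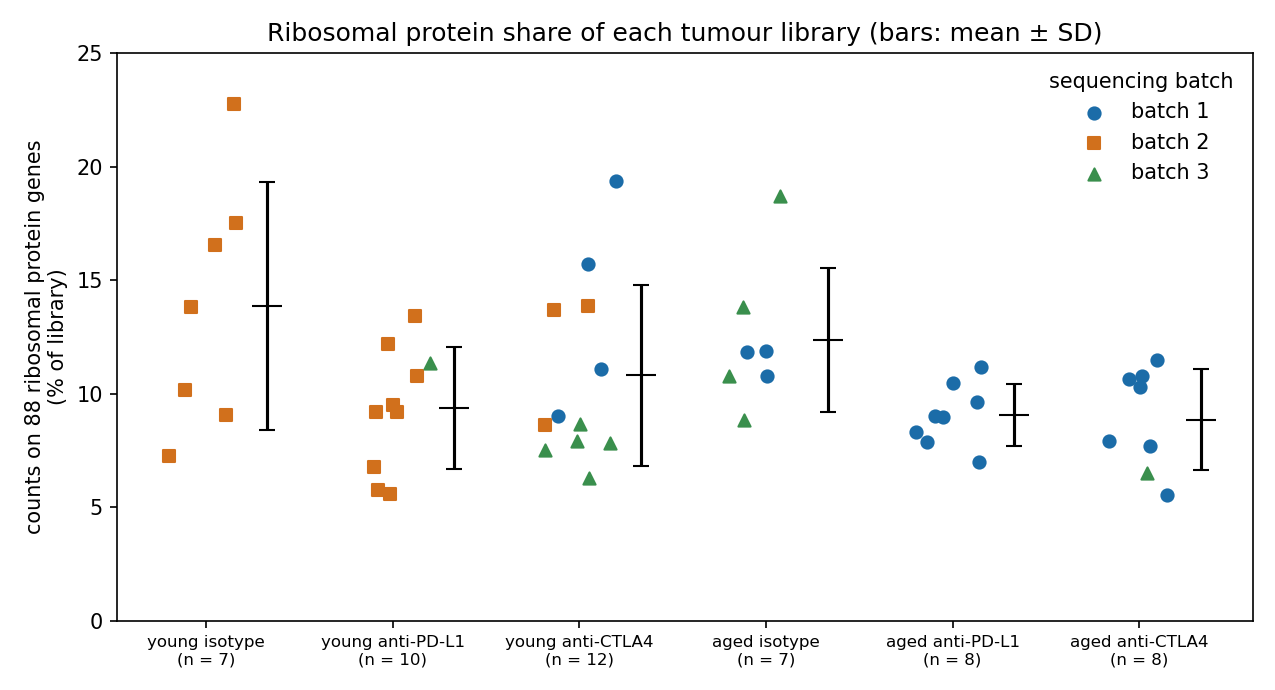
Share of a library's counts that fell on the 88 ribosomal protein genes (percent, y axis) for each of the 52 tumours, by group (x axis), with points marked by sequencing batch and the group mean and SD. The young isotype tumours spread from 7.25% to 22.7%, wider than any other group, and every antibody group overlaps its isotype group.

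By TPM, 42 of the 100 most abundant genes of these tumours were ribosomal protein genes, and 83 of the 88 averaged at least 10 TPM (median of the means 1670). The 5 most abundant held 20.9% of the TPM of all of them. Rpl41, the shortest ribosomal protein, averaged 9950 TPM, Rps27, a small-subunit protein with a zinc finger, 8800, Rps24 and Rplp1 7738 and 7714, and Rps15, which sits in the head of the small subunit, 5527. At the other end were Rpl10l, a testis paralog of Rpl10, at 0.246 TPM, Rpl3l, the striated muscle paralog of Rpl3, at 0.424, the pseudogene copy Rpl6l at 1.66, Rpl39l, the male germ cell paralog of Rpl39, at 4.67, and Rps4l at 6.71. Levels within 1 group were often as far apart between tumours as between neighbouring genes in this order. Rpl41, for example, ranged from 7357 to 24546 TPM in the 7 young isotype tumours, and from 5923 to 15348 in the 7 aged isotype tumours.

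Most of the genes moved up and down together from tumour to tumour. The median of the members' log2 CPM in a library, used here as their common level, was 9.93 ± 0.59 over the 52 libraries and ranged from 8.78 to 11.6. A member's log2 CPM had a median SD of 0.66 over libraries, and of 0.23 once the common level was taken off. By the latter measure Rpsa (a small-subunit protein also known as the laminin receptor) varied least, with an SD of 0.089, followed by Rpl19 at 0.097, Rpl24 at 0.10 and Rps3a2 at 0.11. The most variable were Rps12l1 at 5.55, Rps12 at 1.35, Rpl39l at 1.03, Rpl3l at 0.79 and Rps4l at 0.68. Of these 5, the first is a processed copy of Rps12 and the last 3 are low paralogs or a pseudogene.

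The stalk proteins recruit the elongation factors to the large subunit. Rplp2 had 2833 TPM in the lowest, 3422 in the median and 4359 in the highest young isotype tumour, against 2011, 2592 and 2856 under anti-PD-L1. The groups overlapped only at the edge, with 2856 TPM in the highest anti-PD-L1 tumour and 2833 in the lowest isotype tumour. In the other groups Rplp2 averaged 2855 ± 534 TPM (young anti-CTLA4, n = 12), 2837 ± 373 (aged isotype, n = 7), 2505 ± 321 (aged anti-PD-L1, n = 8) and 2423 ± 233 (aged anti-CTLA4, n = 8). Rplp0, which anchors the stalk, went from 1666 ± 148 TPM (n = 7) in young isotype tumours to 1314 ± 208 (n = 10) under anti-PD-L1 and 1216 ± 300 (n = 12) under anti-CTLA4. Rplp1, the partner of Rplp2, had 9754 ± 1433 TPM in young isotype tumours and 7155 ± 918 in aged isotype tumours (n = 7 each).

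Among small-subunit proteins, Rps6, the substrate of S6 kinase, had 2152 ± 520 TPM (n = 7) in young isotype and 2447 ± 391 (n = 7) in aged isotype tumours. Rps19, the gene most often mutated in Diamond-Blackfan anaemia, had 4575 ± 1362 and 3792 ± 679 TPM in the same groups. Rps14, lost in the 5q- syndrome, had 3978 ± 1546 and 3119 ± 456 TPM. For all 3 genes the tumours of the young and aged isotype groups overlapped. Rps3, which lines the mRNA entry site, had 2978 ± 871 and 3168 ± 546 TPM, and Rps27a, made as a fusion with ubiquitin, 1288 ± 407 and 1459 ± 446. Rps4x, encoded on the X chromosome, was among the steadiest in TPM, between 2248 ± 129 (young isotype, n = 7) and 2522 ± 307 (aged isotype, n = 7) in the 6 groups.

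Among large-subunit proteins, Rpl5 had 3551 ± 1195 TPM in young isotype tumours and 3299 ± 758 in aged ones, and Rpl11, which joins it in the complex with 5S ribosomal RNA, 815 ± 137 and 981 ± 133 (n = 7 each). Rpl10, added late to the large subunit, had 3204 ± 200 and 3588 ± 168 TPM, with values of 2896 to 3488 in young and 3343 to 3815 in aged isotype tumours. Rpl13a, which also takes part in the translational silencing of interferon-induced messages, had 3669 ± 1350 and 3467 ± 805 TPM. Rpl38, known for the translation of Hox messages, had 4033 ± 1237 and 3296 ± 553.

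Under anti-PD-L1 in young mice 2 ribosomal protein genes were lower than with isotype and none was higher. Of the 87 tested, 2 passed edgeR's quasi-likelihood test in that direction, and 0 in the other. Of all 17899 genes tested 1.37% passed as lower and 0.223% as higher. So 2 of 87 is close to the background and is no result about ribosomal protein genes as a group. Rpl29, a large-subunit protein that also binds heparin, had 109 CPM in the lowest, 163 in the median and 215 in the highest anti-PD-L1 tumour, and 187, 229 and 462 with isotype. All 10 anti-PD-L1 tumours lay below the isotype median, and the ranges overlapped between 187 and 215. Its log2 fold change was -0.69 ± 0.16 (SE, adjusted p = 0.0154). Rplp2 had 557, 1043 and 1612 CPM against 925, 1836 and 4331, also with overlap, and a log2 fold change of -0.94 ± 0.26 (edgeR, adjusted p = 0.0497). The next smallest p was that of Rpl26 (-1.10 ± 0.31, edgeR adjusted p = 0.0554), a protein near the exit of the nascent chain.

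The other members leaned the same way in this comparison without passing. Negative log2 fold changes were found for 85 of 87, with a median of -0.80 beside 0.02 over all genes tested, and 77 had an unadjusted p under 0.05 as lower, where 15.1% of all genes did. The medians by role were -0.78 for the large subunit, -0.85 for the small subunit and -0.74 for the stalk. The positive values were those of Rps4l (0.22 ± 0.19, edgeR adjusted p = 0.47) and of Rps12l1, which is listed at 0 in all 7 young isotype tumours, so no fold is given for it. Both calls were lost without the 4 libraries with normalisation factors under 0.8 (young isotype 1 and 6, aged isotype 3 and young anti-CTLA4 8). Both were also lost with only the groups compared and in batch 2 alone, fits that keep young isotype 1 and 6. The 4 libraries were also those with the highest median log2 CPM of the members, a level that a low factor raises by its scaling. By share of counts young isotype 2 (17.5%) lay above young isotype 1 (16.5%). Without the 4 libraries no member passed, the median was -0.29 and 4 members had an unadjusted p under 0.05. With DESeq2 26 members passed, 25 of them as lower. The share of all genes that DESeq2 called is not given here, so that count has no background beside it. Of the cell type lists, 1 of 12 fibroblast markers, Col14a1, was higher in this comparison (1.02 ± 0.26, edgeR adjusted p = 0.0347; median of the list 0.89), and its part in the result was not tested.

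Under anti-CTLA4 in young mice no member passed edgeR's test, where 0.0726% of all genes passed in either direction. At an unadjusted p under 0.05 8 were lower and 1 higher, where 4.41% and 2.55% of all genes were, and DESeq2 called 1. The median log2 fold change was -0.55 beside -0.04 over all genes, with 84 of 87 negative. The smallest p-values as lower were those of Rps12, a small-subunit protein (-1.66 ± 0.59, adjusted p = 0.446), Rpl30, which also binds selenocysteine elements (-0.62 ± 0.23, adjusted p = 0.468), and Rps27a (-0.97 ± 0.40, adjusted p = 0.564), all by edgeR. As higher they were those of Rps12l1, without a fold for the reason above, Rps4l (0.43 ± 0.25, adjusted p = 0.801) and Rpl3l (0.00 ± 0.83, adjusted p = 1.00). No cell type marker passed, but in the fit with the batch term all 12 B cell markers were negative (median -2.20) and all 12 adipocyte markers positive (median 0.99). Summed CPM, taken without a batch term, went the other way for B cell markers. Their medians over tumours were 43.6 under anti-CTLA4 and 21.9 with isotype, and those of adipocyte markers 1344 and 439. The part of these cells was not tested.

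In aged mice no member passed edgeR's test under either antibody, and 0% of all genes did. Under anti-PD-L1 86 of 87 log2 fold changes were negative with a median of -0.97 (all genes 0.05), and 80 members had an unadjusted p under 0.05, all as lower, where 14.9% of all genes were lower. Rpl41 had 1274 CPM in the lowest, 2521 in the median and 3484 in the highest anti-PD-L1 tumour, against 1677, 3887 and 9614 with isotype. The groups overlapped, and the log2 fold change was -1.60 ± 0.50. Rpl36, a large-subunit protein (-1.41 ± 0.44), and Rps18, at the top of the small subunit (-1.30 ± 0.41), followed, and all 3 had an edgeR adjusted p of 0.0878. The groups did not overlap for Rpl30, chosen for that after its values were seen: 180 to 260 CPM under anti-PD-L1 and 262 to 559 with isotype, with a log2 fold change of -0.57 ± 0.22 (edgeR, adjusted p = 0.094).

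Under anti-CTLA4 in aged mice 86 of 87 were negative with a median of -0.94 (all genes 0.02), and 83 had an unadjusted p under 0.05, where 16.2% of all genes were lower. The smallest p-values were those of Rpl36 (-1.37 ± 0.43), Rpl41 (-1.53 ± 0.49) and Rpl6l (-1.42 ± 0.45), each with an edgeR adjusted p of 0.0956. DESeq2 on the same counts called 67 members under anti-PD-L1 and 71 under anti-CTLA4, all lower, while limma on log2(TPM + 1) called 0 in both. The share of all genes that DESeq2 called is not given here, so its counts show nothing particular to the members. In batch 1 alone, where 3 aged isotype tumours met 8 and 7 antibody tumours, the medians were -0.43 and -0.38. No marker of a cell type passed in either comparison, though lists differed in their medians. The 14 neutrophil markers had a median of -1.97 under anti-PD-L1 and -1.76 under anti-CTLA4. At an unadjusted p under 0.05 8 and 7 of them were lower, where 14.9% and 16.2% of all genes were. The summed CPM of the neutrophil markers were far higher in aged isotype tumour 7 (4257) than in the other aged isotype tumours (292 to 592). The median tumour had 437 CPM with isotype, 363 under anti-PD-L1 and 384 under anti-CTLA4. The 10 markers of secretory mammary epithelium had medians of 2.25 and 2.36, with 9 of 10 positive in each. At an unadjusted p under 0.05 7 and 6 of the 10 were higher. The share of all genes higher at that level is not given here, so these counts have no background beside them. The part of these cells in the result was not tested. Both comparisons use the same 7 isotype tumours, as do the 2 antibody comparisons in young mice.

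**Figure D2:**
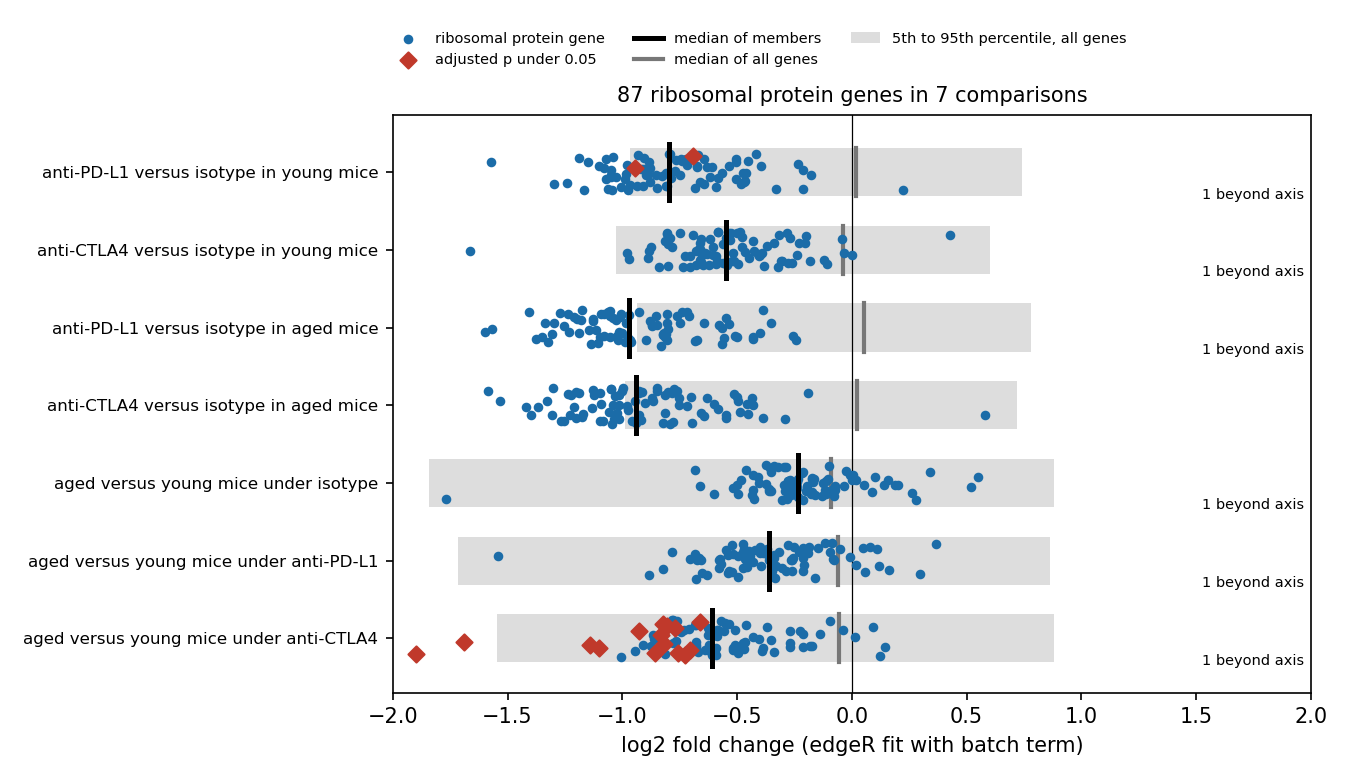
Log2 fold changes of the 87 members tested (x axis) in the 4 antibody and 3 age comparisons (rows), 1 point per gene. A red diamond marks a gene that passed edgeR's test. Black bars give the members' median, grey bars the median of all genes and grey bands the 5th to 95th percentile of all genes. Rps12l1 lies beyond the axis in every row except that of anti-CTLA4 in aged mice. The members' medians lie at -0.80 and -0.55 in young mice and at -0.97 and -0.94 in aged mice for anti-PD-L1 and anti-CTLA4, while the passing genes are 2 under anti-PD-L1 in young mice and 15 in aged against young anti-CTLA4 tumours.

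The antibody effects were not shown to differ between the ages. No member passed edgeR's test of the difference for either antibody, and 0% of all genes did, while DESeq2 called 1 member in each. At an unadjusted p under 0.05 there were 0 members for either antibody, where 2.28% of all genes were higher and 1.38% lower for anti-PD-L1 and 4.03% and 2.99% for anti-CTLA4. The median differences (aged minus young) were -0.16 for anti-PD-L1 and -0.40 for anti-CTLA4. Between the antibodies no member passed at either age (0% of all genes), with medians of 0.24 in young and 0.01 in aged mice for anti-CTLA4 against anti-PD-L1. At an unadjusted p under 0.05 the count was 1 of 87 in young mice, Rpl3l as higher (3.77% of all genes were higher and 3.17% lower), and 0 in aged mice (0.43% and 0.927%), and neither DESeq2 nor limma called any.

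Between aged and young tumours with isotype antibody no member passed, where 8.41% of all genes passed in either direction. Rpl29 came closest: its 7 aged tumours had 92.7, 134 and 186 CPM (lowest, median, highest) and the 7 young ones 187, 229 and 462, so the groups did not overlap. Its log2 fold change was -0.68 ± 0.25 (edgeR, adjusted p = 0.0782). Young isotype tumours were all sequenced in batch 2 and aged ones in batches 1 and 3, so for these groups batch and age are separated only through the other groups of the fit. Rps12 (-1.77 ± 0.73, adjusted p = 0.119) and Rps26, a small-subunit protein at the mRNA exit (-0.42 ± 0.30, adjusted p = 0.392), followed as lower. As higher they were Rps12l1, listed at 0 in the young group, Rpl7l1, the paralog of Rpl7 (0.52 ± 0.23, adjusted p = 0.144), and Rpl27 (0.55 ± 0.36, adjusted p = 0.351), all by edgeR. The median was -0.24 beside -0.09 over all genes, 2 members were lower and 2 higher at an unadjusted p under 0.05 (13.3% and 11.3% of all genes), and DESeq2 called 1. The sign of the median turned to 0.16 without the 4 libraries of low normalisation factor. In the same comparison 3 of 10 carcinoma epithelium markers were higher in aged tumours (Cldn4, Krt7 and Epcam, median of the list 0.98). The macrophage marker Cd68 was lower (-0.94 ± 0.29, edgeR adjusted p = 0.0357) and the skeletal muscle gene Tnnt3 higher (2.80 ± 0.73, edgeR adjusted p = 0.0135), each as the 1 gene of its list that passed. No gene of the B cell, T cell and secretory epithelium lists passed. In the fit with the batch term all of their 12, 12 and 10 genes were negative, with medians of -3.11, -1.79 and -2.89. Summed CPM, taken without a batch term, went the other way for B cell markers. Their medians over tumours were 79.3 in aged and 21.9 in young isotype tumours. For T cell markers these were 124 and 135, and for secretory epithelium 30.6 and 159. The part of these cells was not tested.

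Under anti-PD-L1 no member passed between the ages either, where 5.04% of all genes passed in either direction, and DESeq2 called 0. The 4 members with an unadjusted p under 0.05 were all lower in aged tumours (10.3% of all genes were), among them Rps4l (-0.68 ± 0.30, adjusted p = 0.183), Rpl29 (-0.54 ± 0.25, adjusted p = 0.193) and Rps29, a small-subunit zinc finger protein (-0.70 ± 0.33, adjusted p = 0.21), by edgeR. The median was -0.36. Positive values of smallest p were those of Rpl7l1 (0.30 ± 0.22, adjusted p = 0.459) and Rpl27 (0.37 ± 0.35, adjusted p = 0.58). In the same comparison 6 of 14 neutrophil markers were lower in aged tumours (median of the list -1.99, all 14 negative) and 2 of 10 carcinoma epithelium markers, Krt7 and Epcam, were higher (median 0.75). The macrophage marker Cd68 and the fibroblast marker Pi16 were lower, and the skeletal muscle gene Tnnt3 was higher, each as the 1 gene of its list that passed. In the fit with the batch term all 12 B cell and all 12 T cell markers were negative (medians -3.04 and -1.55) with 0 passing. Summed CPM, taken without a batch term, were not lower in aged tumours. Their medians over tumours were 20.3 in aged and 19.4 in young tumours for B cell markers, and 112 and 101 for T cell markers. The aged and young anti-PD-L1 tumours shared no batch, and the part of these cells was not tested.

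Under anti-CTLA4 15 members were lower in aged than in young tumours and none was higher. Of all genes tested 15.9% were lower and 14.8% higher in this comparison, so 15 of 87 is close to the background and is no result about ribosomal protein genes as a group. They were 5 of 48 large-subunit, 8 of 36 small-subunit and 2 of 3 stalk genes, with a median over all 87 of -0.61 (all genes -0.06). Rps4l had 2.98 CPM in the lowest, 4.38 in the median and 5.07 in the highest aged tumour and 5.29, 7.14 and 9.72 in young tumours. The groups did not overlap in CPM, and the log2 fold change of Rps4l was -0.83 ± 0.20 (edgeR, adjusted p = 0.00133). In TPM they did overlap: within batch 1 Rps4l had 4.67 to 7.35 in aged (n = 7) and 4.88 to 12.4 in young tumours (n = 4). Rpl29 had 78.7, 123 and 140 CPM against 101, 161 and 314, with overlap and all 8 aged tumours under the young median (-0.70 ± 0.17, edgeR adjusted p = 0.00134).

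The same test called 4 more of the 6 with smallest p. Rpl28, a large-subunit protein, had 191, 379 and 456 CPM in aged and 262, 501 and 1271 in young tumours (-0.81 ± 0.20, edgeR adjusted p = 0.00183). Rpl3l had 0.125, 0.22 and 0.434 CPM against 0, 0.626 and 2.41 (-1.90 ± 0.51, edgeR adjusted p = 0.0041), levels close to the limit of detection. Rps29 had 590, 891 and 1047 CPM against 731, 1134 and 3157 (-0.86 ± 0.23, edgeR adjusted p = 0.00445). Rps13, a small-subunit protein, had 69.7, 145 and 185 CPM against 105, 174 and 732 (-1.14 ± 0.35, edgeR adjusted p = 0.0118). For all 4 the groups overlapped. The other 9, in order of p, were Rps28, Rpl37a, Rps12, Rps21, Rplp1, Rplp2, Rpl37, Rps16 and Rps14, with log2 fold changes from -1.69 (Rps12) to -0.66 (Rps28).

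The count of 15 moved with the libraries used. Without the 4 libraries of low normalisation factor, of which only young anti-CTLA4 8 is in this comparison, 7 members passed. Without the library farthest from the others in each group 2 did. In batch 1 alone (7 aged and 4 young tumours), which keeps young anti-CTLA4 8, 23 passed, all lower. More than 15 passed with only the groups compared. The shares of all genes in these fits are not given, so the moves have no background beside them. Marker lists moved in the same comparison. Of 12 T cell markers 8 were lower in aged tumours (median log2 fold change -1.81), of 14 neutrophil markers 13 were lower (median -2.51) and of 10 carcinoma epithelium markers 7 were higher (median 0.96). Of 12 macrophage markers 4 were lower (median -0.45), and of 6 skeletal muscle genes 2, Tnnt3 and Myh1, were higher. The fibroblast marker Lum was higher and the endothelial marker Egfl7 lower, each as the 1 gene of its list that passed. The summed neutrophil markers ranged from 195 to 453 CPM in aged and from 511 to 4143 CPM in young anti-CTLA4 tumours, and the carcinoma markers from 2293 to 3446 and from 666 to 2823 CPM. The part of these cell differences in the ribosomal protein result was not tested.

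In 3 of the 4 antibody comparisons the median fold change of other genes was higher the longer the genes, and ribosomal protein genes are short. When all 17899 genes were ordered by length and split into 10 equal bins, 43 members fell into the shortest bin and 33 into the next. Under anti-PD-L1 in young mice the other genes had a median log2 fold change of -0.55 in the shortest bin, rising through -0.36, -0.19 and -0.06 to 0.30 in the longest. The members in the shortest bin had a median of -0.90 and those in the next -0.72, so both lay below the other genes of like length. In aged mice the other genes of the shortest bin were at -0.62 under anti-PD-L1 and -0.71 under anti-CTLA4, where the members in it were at -1.04 and -1.04, and those of the longest bin were at 0.54 and 0.49. Under anti-CTLA4 in young mice the other genes were at -0.43 in the shortest bin and -0.16 in the next, lay near 0 from the fourth bin on and were at -0.04 in the longest, while the members of the 2 shortest bins were at -0.62 and -0.49. Between the ages the order by length was seen under anti-CTLA4 (-0.61 in the shortest and 0.28 in the longest bin) but not under isotype, where both ends were negative (-0.35 and -0.22). Among the members themselves, split into 3 parts by length, the median under anti-PD-L1 in young mice was -0.94 for the shortest, -0.77 for the middle and -0.72 for the longest part.

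**Figure D3:**
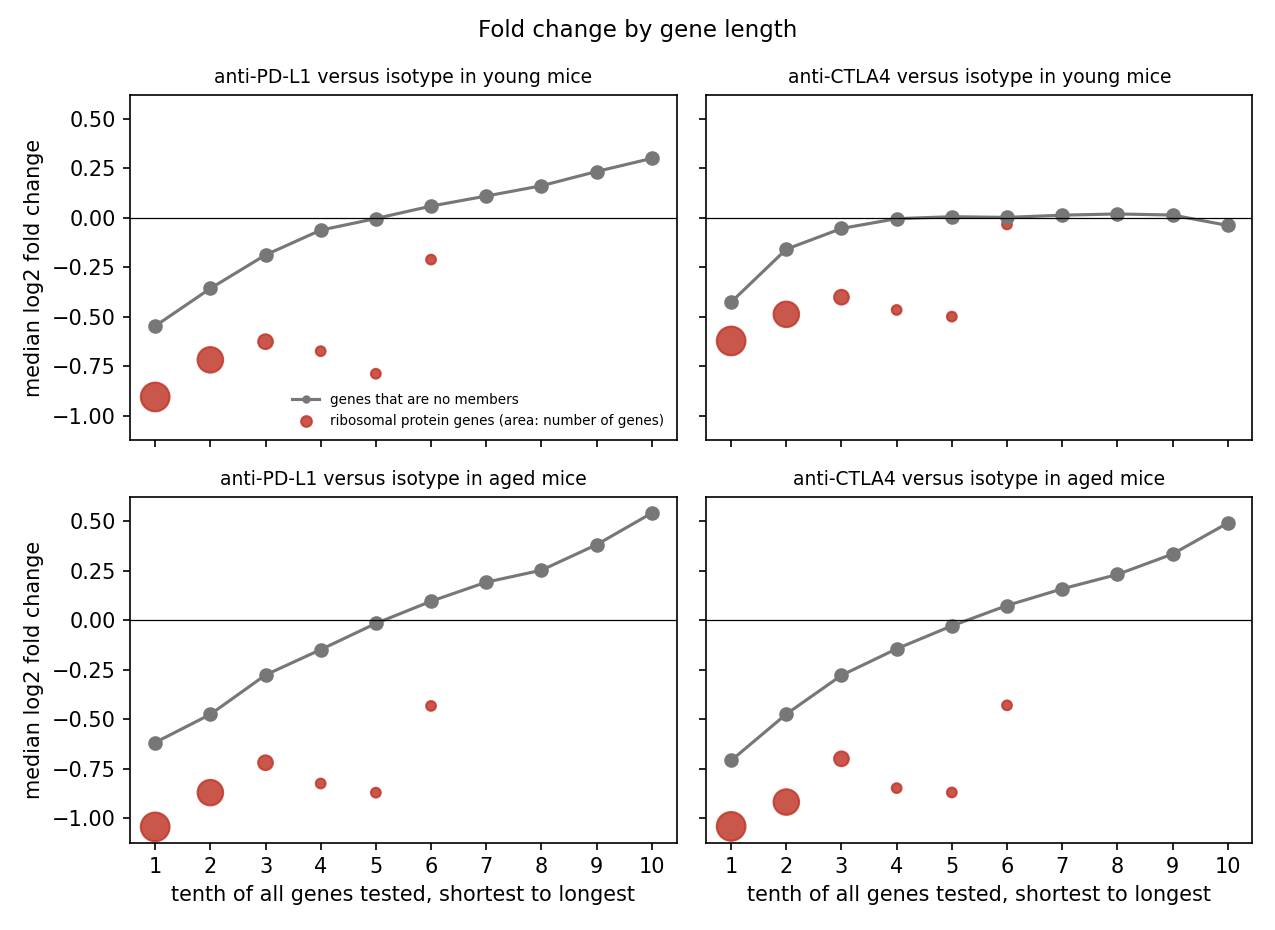
Median log2 fold change (y axis) by bin of gene length, 10 equal bins from shortest to longest (x axis), for other genes (grey line) and for ribosomal protein genes (red points, area by number of genes), in the 4 antibody comparisons. Under anti-PD-L1 in young mice the line climbs from -0.55 to 0.30 and the points of the 2 shortest bins lie below it at -0.90 and -0.72.

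A slope on gene length was also taken from each tumour. The slope of log2 CPM on log2 length over the 17812 other genes tested, relative to the mean of all libraries, was -0.14 ± 0.18 (n = 7) in young isotype tumours, 0.02 ± 0.14 (n = 10) with anti-PD-L1 and -0.05 ± 0.15 (n = 12) with anti-CTLA4. In aged tumours it was -0.07 ± 0.11 (n = 7) with isotype, 0.12 ± 0.07 (n = 8) with anti-PD-L1 and 0.11 ± 0.09 (n = 8) with anti-CTLA4. The tumour with the lowest slope (-0.44), in which short genes were relatively high, had the highest common level of ribosomal protein messages (11.6), and the lowest level (8.78) was found at a slope of 0.22. With this slope as a covariate in the edgeR fit, the members' median went from -0.80 to -0.05 under anti-PD-L1 in young mice, from -0.97 to 0.00 and from -0.94 to -0.08 under anti-PD-L1 and anti-CTLA4 in aged mice, and from -0.61 to 0.21 between the ages under anti-CTLA4. No member then passed in the 3 antibody comparisons, and 12 passed between the ages under anti-CTLA4, 9 higher and 3 lower. The slope was measured on the same libraries, and which of RNA quality, library preparation or cell state moves it was not tested.

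**Figure D4:**
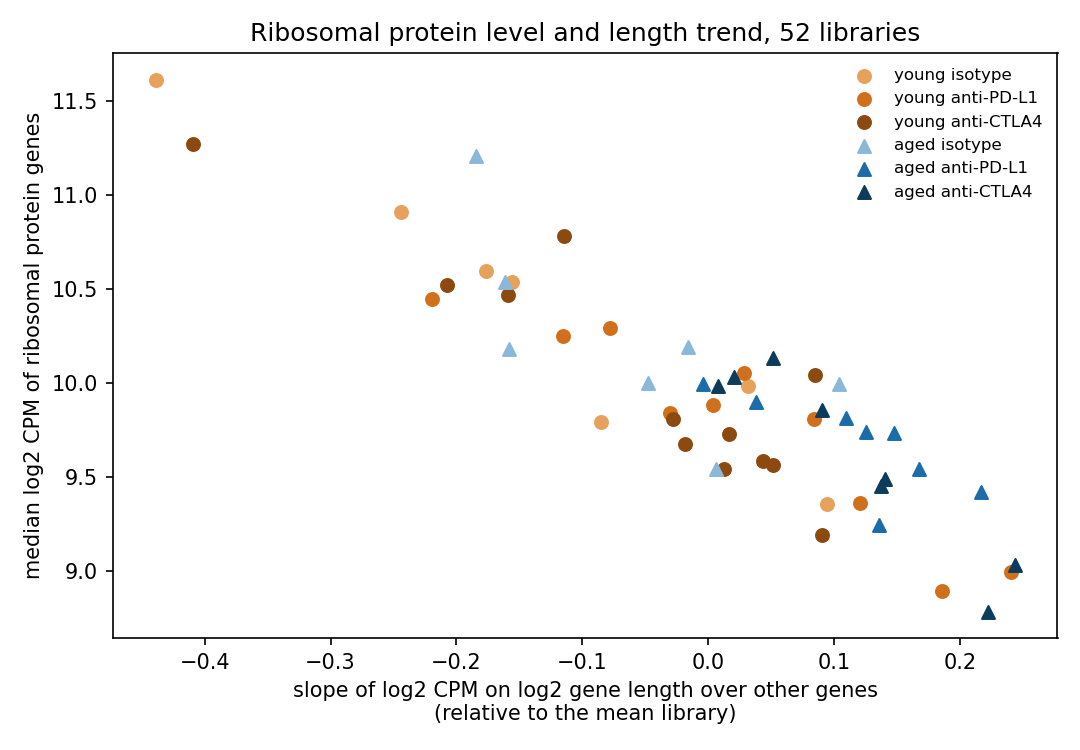
Common level of the ribosomal protein genes (median log2 CPM of the members, y axis) against the slope of log2 CPM on log2 gene length over all other genes tested (x axis), 1 point for each of the 52 tumours, coloured by group. Levels run from 8.78 to 11.6 and slopes from -0.44 to 0.24, with the highest level at the lowest slope, and the points share the libraries from which both measures come.

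Several genes had few of the counts of their family. Ribosomal protein messages have many processed copies in the genome, and 60 of the 88 members had 275 copies named after them in the files (the member's symbol followed by -ps or rt and a number). For 42 of the 60 the member held more than 90% of the summed TPM, but for 12 it held under 50%. Rps12 held 0.148%: the member averaged 17.1 TPM and its copy Rps12-ps3 (chr19:59322290-59322783 in GRCm38, annotated as protein coding) 11471 TPM. Rpl27 held 3.27%, Rpl3 6.15%, Rpl23a 7.63%, Rps2 18.9% and Rps13 19.0%, and the other 6 (Rpl30, Rps23, Rpl39, Rpl28, Rps27a and Rpl36a) between 26.9% and 43.7%. Aligned with their most abundant copy, the coding sequences of these 12 were identical at 99.1% to 100% of positions, and Rps12, Rpl27, Rpl28 and Rpl36a matched over their whole coding sequence. Rps12 and Rps12-ps3 agreed at all 396 coding bases, and at all 450 bases of the mRNA that could be aligned.

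The first 60 coding bases of 2 such families show how little there is to assign a read by, with capitals where member and copy differ. Reads of such families cannot be given to 1 gene with certainty, so values of these 12 members are uncertain as values of the named gene.
Rps12: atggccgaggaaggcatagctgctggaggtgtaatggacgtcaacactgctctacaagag
Rps12-ps3: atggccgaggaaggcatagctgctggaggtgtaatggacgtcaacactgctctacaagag
Rpl30: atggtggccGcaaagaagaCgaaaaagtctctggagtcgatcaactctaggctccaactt
Rpl30-ps10: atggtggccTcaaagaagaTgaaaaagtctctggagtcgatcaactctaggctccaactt

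**Figure D5:**
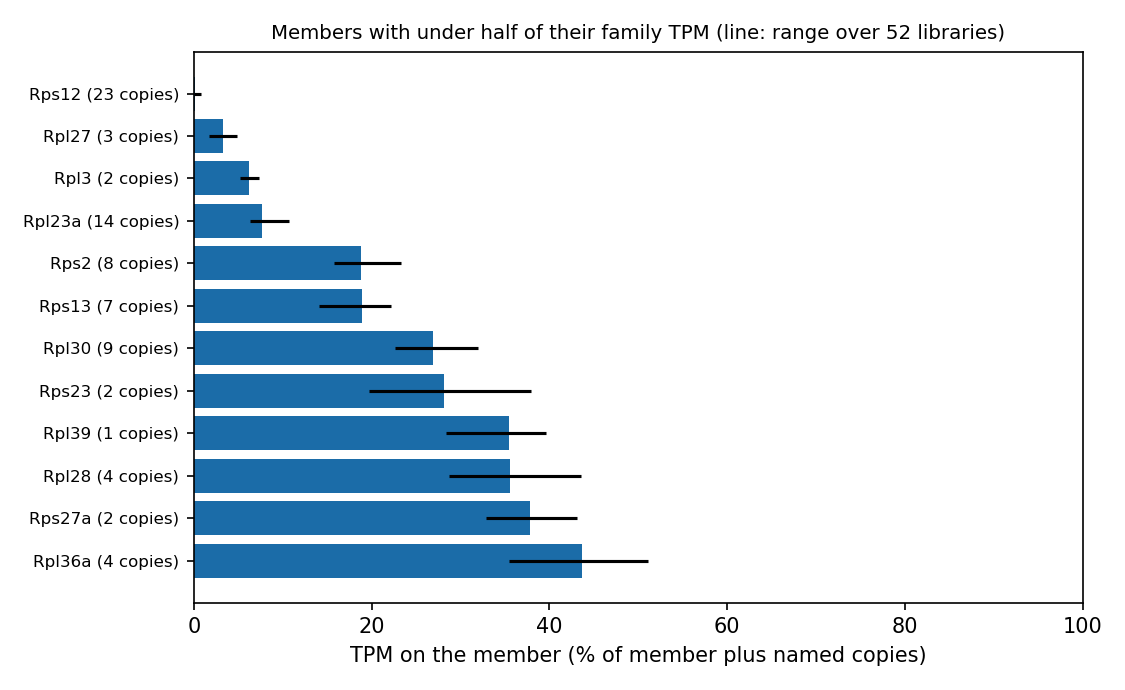
Share of the summed TPM of a family that was listed under the ribosomal protein gene itself (percent, x axis), for the 12 members under 50% (y axis), as a bar with a line for the range over the 52 libraries. Rps12 lies at 0.148% and Rpl27 at 3.27%, with the rest of the family's TPM listed under named copies.

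Rps12 and the copy Rps12l1 also varied with the sequencing batch. Rps12l1 (chr7:56014016-56014414 in GRCm38) was listed at 0 in 28 of 52 libraries, all 7 young isotype libraries among them, and had 44.7 to 2502 TPM in the other 24. In young anti-CTLA4 tumours it was listed at 0 in all 4 libraries of batch 1, averaged 14.9 TPM in the 3 of batch 2, and had 666 to 1779 TPM in the 5 of batch 3. It also varied within a batch, from 0 to 2502 TPM in the 8 aged anti-PD-L1 tumours of batch 1. Rps12 itself averaged 7.38 ± 3.64, 15.9 ± 3.58 and 40.2 ± 14.4 TPM in those batches. In aged isotype tumours Rps12 had 7.30 ± 2.93 TPM in batch 1 (n = 3) and 32.4 ± 23.5 in batch 3 (n = 4), and the 1 batch 3 library of young anti-PD-L1 tumours had 92.5 TPM against 6.11 to 17.4 in the 9 of batch 2. The low Rps12 of the aged antibody groups, 4.20 ± 1.90 and 4.21 ± 2.13 TPM (n = 8 each), came from batch 1 in every library but 1.

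The aged and young isotype tumours did not overlap in the TPM of Rpl29. It had 340 ± 43.8 TPM (n = 7) in young isotype tumours, 280 ± 37.2 (n = 10) with anti-PD-L1 and 261 ± 35.8 (n = 12) with anti-CTLA4, and in aged tumours 195 ± 21.7 (isotype, n = 7), 213 ± 22.8 (anti-PD-L1, n = 8) and 220 ± 24.2 (anti-CTLA4, n = 8). Values in all 7 aged isotype tumours (166 to 221 TPM) lay below all 7 young ones (274 to 398 TPM), while the 3 aged groups lay within their spread of each other. Within batch 1 the young anti-CTLA4 tumours had 288 ± 15.1 TPM (n = 4; 272 to 308) and the aged ones 224 ± 21.9 (n = 7; 187 to 260), again without overlap. Batch 3 was lower than the others within a group, at 227 ± 27.0 TPM (n = 5) in young anti-CTLA4 and 183 ± 19.4 (n = 4) in aged isotype tumours. The 1 young anti-PD-L1 tumour of batch 3 had 181 TPM, within the range of the aged groups, against 263 to 307 in the 9 of batch 2. Rpl29 held 99.7% of the TPM of its family, so its values are little affected by its 3 named copies.

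Paralogs that replace a ribosomal protein in particular tissues were compared with their partners per length, as log2 of the ratio of TPM with 0.1 added to each. Rpl39l stood at -9.27 ± 0.43 relative to Rpl39 in young isotype tumours (n = 7; -9.77 to -8.47) and at -7.97 ± 0.29 in aged isotype tumours (n = 7; -8.31 to -7.57). The groups did not overlap, and in TPM Rpl39l had 1.05 to 3.03 in young and 5.16 to 11.9 in aged isotype tumours. Under the antibodies the ratio was -8.96 ± 1.04 (anti-PD-L1, n = 10) and -8.63 ± 1.00 (anti-CTLA4, n = 12) in young mice and -7.94 ± 0.55 and -7.80 ± 0.39 (n = 8 each) in aged mice. Batch moved with it: in young anti-CTLA4 tumours Rpl39l averaged 4.56 ± 1.99 TPM in batch 1, 1.69 ± 0.68 in batch 2 and 5.2 ± 3.72 in batch 3. With batch in the fit, Rpl39l did not pass between the ages (isotype 0.34 ± 0.65, edgeR adjusted p = 0.791).

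Group means of the other pairs are given by their range. Rpl22l1, the paralog of Rpl22 that it can replace, stood at -2.63 ± 0.27 relative to Rpl22 in young isotype and -2.27 ± 0.19 in aged isotype tumours (n = 7 each), and between -2.68 and -2.44 in the antibody groups. Rps27l, a p53-induced paralog of Rps27, lay between -4.10 and -3.81 in all 6 groups, and Rpl7l1 between -5.12 and -4.76 relative to Rpl7. Rpl3l lay between -8.50 and -7.43 relative to Rpl3, highest in young anti-CTLA4 tumours, but Rpl3 itself is 1 of the 12 genes with few of their family's counts. Rpl10l was listed at 0 in 32 of 52 libraries and reached 4.97 TPM in 1 young anti-CTLA4 tumour, so most of its ratios to Rpl10, with group means from -15.02 to -13.31, are set by the 0.1 TPM added.

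Other genes of the ribosome and of translation were taken from lists written with earlier results of these data known. The 4 ribosome genes outside the symbol rule include Fau, which encodes Rps30 as a fusion with a ubiquitin-like protein. They had medians of -0.76 and -0.53 under anti-PD-L1 and anti-CTLA4 in young mice and -0.89 and -0.91 in aged mice, with 0 of 4 passing. Fau was lower in aged than in young anti-CTLA4 tumours (-1.09 ± 0.34, edgeR adjusted p = 0.013). The 78 mitochondrial ribosomal proteins had medians of -0.47, -0.23, -0.63 and -0.64 in the 4 antibody comparisons, with 0 passing and 74, 66, 77 and 77 negative. Between the ages 2 passed as higher under isotype, Mrps5 (0.53 ± 0.17, edgeR adjusted p = 0.0458) and Mrps22 (0.78 ± 0.26, edgeR adjusted p = 0.0496), and under anti-CTLA4 14 were lower and 2 higher, with Mrpl4 at -0.50 ± 0.10 (edgeR, adjusted p = 0.000286). The 14 of 78 lie near the background there, where 15.9% of all genes were lower.

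Genes that build ribosomes were given by 2 lists, and neither was tested against the ribosomal proteins. The 44 biogenesis factors, which process and export pre-ribosomes, had medians of 0.11, -0.04, 0.08 and 0.02 in the antibody comparisons with 0 passing. The 17 genes of RNA polymerase I, which transcribes ribosomal RNA, and its factors had medians of -0.26, -0.13, -0.49 and -0.45, also with 0 passing. At an unadjusted p under 0.05 8, 2, 9 and 9 of them were lower, where 15.1%, 4.41%, 14.9% and 16.2% of all genes were. Between the ages 6 of the 44 biogenesis factors were higher in aged tumours under isotype and 3 under anti-PD-L1, where 8.41% and 5.04% of all genes passed in either direction. Under anti-CTLA4 14 of the 44 were higher, where 14.8% of all genes were, and none of the 44 was lower in the 3 comparisons. Nop58, a core protein of the box C/D particles that methylate ribosomal RNA, rose by 0.87 ± 0.18 (edgeR, adjusted p = 0.00224), 0.73 ± 0.17 (adjusted p = 0.0118) and 0.68 ± 0.12 (adjusted p = 6.21e-05). Wdr43, a processome factor for the small subunit, rose by 0.67 ± 0.15 under isotype (edgeR, adjusted p = 0.00504), and Nmd3, the export adaptor of the large subunit, by 0.93 ± 0.21 (edgeR, adjusted p = 0.00487).

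Of 29 initiation factors 4 were higher in aged tumours under each antibody, and 2 were lower under anti-CTLA4. The 4 of 29 under anti-CTLA4 lie near the background, since 14.8% of all genes were higher there. Eif5, which activates the GTPase of the initiation complex, rose by 1.03 ± 0.19 (isotype, edgeR adjusted p = 0.00119), 0.82 ± 0.19 (anti-PD-L1, adjusted p = 0.0107) and 0.80 ± 0.13 (anti-CTLA4, adjusted p = 2.44e-05). Eif6, which keeps free large subunits from joining, was lower under anti-CTLA4 (-0.44 ± 0.13, edgeR adjusted p = 0.00981), together with Eif2b4, a subunit of the exchange factor eIF2B. The 19 other TOP messages had medians of -0.29, -0.21, -0.28 and -0.32 in the antibody comparisons, nearer to 0 than those of the ribosomal proteins. Among 12 p53 targets known from ribosomal stress, Cdkn1a, the cell cycle inhibitor p21, was lower in aged tumours under all 3 antibodies: -0.88 ± 0.28 (edgeR, adjusted p = 0.04) with isotype, -0.91 ± 0.28 (adjusted p = 0.0422) with anti-PD-L1 and -1.03 ± 0.18 (adjusted p = 3.44e-05) with anti-CTLA4. Sesn2, an inhibitor of mTORC1, was higher under anti-PD-L1 in young mice (0.77 ± 0.20, edgeR adjusted p = 0.0377).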

How the data were processed

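Whole-tumour polyadenylated RNA was sequenced as stranded paired 75-base reads, per the labels' protocols. Tools given, per the submitters' processing notes, are Salmon and DESeq2 1.16.1, with mm10 as build and no roles stated. The authors deposited estimated counts per gene as whole numbers and, separately, TPM. The estimated counts were used as deposited. They were proportional to TPM times gene length (largest log2 deviation 0.0018 over 2644 genes with at least 500 counts in every library). All table columns were matched to samples by their names (0 columns unmatched). Of 47729 identifiers 47224 had a symbol in the reference table.

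The members and lists were chosen with earlier results of these data known. Levels of different genes were compared by TPM only. Differences were tested with edgeR 4.0.16 (R 4.3.3): genes kept by filterByExpr (17899), TMM factors, quasi-likelihood fit of all 52 libraries with a term per group and for sequencing batch, Benjamini-Hochberg adjustment over all genes tested and a threshold of 0.05. CPM values use these factors. Named genes were members of smallest p in each direction (6 of those passing, or 3 where fewer than 3 passed), the 5 highest and lowest by TPM, the 5 most and least variable, and a set of members with known roles. Some genes that this rule names are not reported here. Alternatives were other scaling (relative log expression), no filter, no batch term, a replicate block, DESeq2 1.42.0, limma 3.58.1 on log2(TPM + 1), subsets of libraries, and a length trend as covariate. After the data were seen, adding named copies to the member and splitting members by length were added. Copies were aligned with Biopython 1.88, using GENCODE transcripts on GRCm38. Replicate numbers did not pair libraries across groups. The scripts were tested on simulated data. Total counts limit the precision of genes at a few counts, such as Rpl3l.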

Additional observations from a re-analysis of the deposited data

Results flagged for a closer look

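Dixon's criterion was applied to 115 sets of values, each 1 measure in 1 group. The measures were 15 genes, 5 paralog ratios, the share of counts, the common level and the length slope. The young anti-CTLA4 group was too large for the criterion as used and was left out. Of the 115 sets 2, or 1.74%, held a tumour that lay far from the others of its group. Chance alone flags about 1 in 20. Rps12 in young anti-PD-L1 tumour 1 had a log2 CPM of 5.18, where the other 9 tumours of the group had 0.54 to 2.85. That tumour is the only one of its group sequenced in batch 3, and Rps12 was also higher in batch 3 than in the other batches within the young anti-CTLA4 and aged isotype groups. Rps4l in aged isotype tumour 5 had a log2 CPM of 1.12, where the other 6 had 1.93 to 2.53.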

How the results depend on the processing

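Scaling by relative log expression changed no count of members passing by more than 1.5 times. Other settings moved counts. The counts of all genes under those settings are given only for the replicate block, so the moves have no background beside them. In young mice under anti-PD-L1, 2 members passed in the fit as reported, 4 without the batch term, 26 with DESeq2, 1 without the filter, with named copies added or with limma on log2(TPM + 1), and 0 without the 4 libraries of low factor, with the length trend as a covariate, with only the groups compared or in batch 2 alone. The replicate block, tried although replicate numbers did not pair libraries, left 1 member there and 135 of all genes in place of 285, and moved no other count of members by over 1.5 times. No comparison had every library correlating best with its own number. For anti-CTLA4 in young mice 0 became 2 without the batch term and 1 with DESeq2. For aged mice 0 became 1 without the batch term (anti-PD-L1), and 67 (anti-PD-L1) and 71 (anti-CTLA4) with DESeq2.

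Between the ages under isotype 0 became 4 without the batch term, with the length trend and with limma, 2 with only the groups compared and without the farthest library of each group, and 1 with DESeq2 and without the libraries of low factor. Under anti-PD-L1 0 became 2 without the batch term, 4 with the length trend and 3 with only the groups compared. Under anti-CTLA4 15 became 8 without the batch term, 7 without the libraries of low factor, 57 with only the groups compared, 2 without the farthest libraries and 23 in batch 1 alone. DESeq2 called 1 member in each difference of effects, and 1 passed between the antibodies in young mice without the batch term.

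The length trend as a covariate moved the members' median to -0.054 (anti-PD-L1, young), -0.0040 (anti-PD-L1, aged), -0.085 (anti-CTLA4, aged), 0.19 (ages under anti-PD-L1) and 0.21 (ages under anti-CTLA4). It reversed 4 members called between the ages under anti-CTLA4: Rps14 (0.083), Rplp2 (0.058), Rps16 (0.054) and Rpl37 (0.0073). For aged mice the median under anti-PD-L1 was -0.42 with only the groups compared, -0.43 in batch 1 alone and -0.37 with limma, and under anti-CTLA4 -0.38 in batch 1 alone and -0.36 with limma. The median difference of the anti-PD-L1 effect became 0.45 with only the groups compared. The cause of these moves was not tested. The share of TPM in place of counts was 22.5%, 17.8% and 19.3% in young isotype, anti-PD-L1 and anti-CTLA4 tumours and 21.1%, 17.3% and 17.1% in aged ones.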
